A study of Homo sapiens with 6 samples.

Results

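The genes of protein folding and quality control in the endoplasmic reticulum (ER), together with those of the unfolded protein response, were followed across 6 RNA sequencing libraries of U937 cells. They are 40 genes chosen by symbol from the 58735 of the table, and each matched 1 row. U937 is an established human line of monocytic character, given in the labels under bone marrow and as an acute promyelocytic leukaemia cell type. Of the libraries, 3 are labelled control (genotype NC) and 3 oeBCL6B, for overexpression of the zinc finger repressor BCL6B, which, per the series' design text, was delivered to leukaemia lines by lentivirus. All 6 share a batch label, a treatment label that names only a phenotyping experiment and the same parental line, and no label says whether replicates were separate cultures, so that p-values measure the spread between libraries, which may be technical.

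Secreted and membrane proteins enter the ER through the SEC61 channel and fold with the help of chaperones, lectins and disulfide isomerases, while those that fail to fold are returned to the cytosol and degraded. When unfolded protein builds up, the sensors IRE1, ATF6 and PERK start the unfolded protein response, in which the transcription factors ATF6 and spliced XBP1 raise the genes of folding and degradation through the ER stress response elements ERSE and ERSE-II. In myeloid cells these genes also serve the making of abundant granule proteins such as myeloperoxidase.

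ER stress response elements are shown first, because the genes that carry them fell in some cases, rose in another or did not pass the test. RefSeq promoters (GRCh38.p14, 250 bases before to 50 after the start) were at hand for 37 of the 40 genes, not for PDIA3, DERL1 and DERL3. Both strands were searched for ERSE, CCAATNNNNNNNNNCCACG, which 7 of the 37 held, against 14 of the 8893 promoters of tested genes (0.157%). ERSE-II, ATTGGNCCACG, was held by 3 of the 37, against 10 of 8893 (0.112%). The 8893 include the 37, so that the matches of these genes are part of both counts. Both motifs end in CCACG and could overlap, but 0 of the 37 promoters held both. Several of these genes are textbook carriers of the elements, so that the counts are a description. The stretches below run from 15 bases before the first match to 15 after the last, read 5′ to 3′ on the gene's strand, with capitals marking the letters of a match on either strand.
HSPA5 (chr9:125241376-125241424, minus strand): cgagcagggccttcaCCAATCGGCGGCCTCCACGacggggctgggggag
HSP90B1 (chr12:103930201-103930354, plus strand): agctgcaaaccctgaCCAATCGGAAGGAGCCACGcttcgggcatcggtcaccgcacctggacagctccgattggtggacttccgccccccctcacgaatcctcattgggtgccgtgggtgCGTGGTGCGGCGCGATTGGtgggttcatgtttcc
SDF2L1 (chr22:21642099-21642139, plus strand): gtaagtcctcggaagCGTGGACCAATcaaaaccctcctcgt
CALR (chr19:12938369-12938417, plus strand): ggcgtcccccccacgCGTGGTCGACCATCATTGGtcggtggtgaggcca
XBP1 (chr22:28800588-28800636, minus strand): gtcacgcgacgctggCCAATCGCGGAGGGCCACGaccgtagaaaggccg
HERPUD1 (chr16:56932010-56932050, plus strand): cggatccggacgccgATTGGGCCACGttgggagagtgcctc
CANX (chr5:179698763-179698811, plus strand): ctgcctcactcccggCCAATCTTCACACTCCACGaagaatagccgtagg
CRELD2 (chr22:49918539-49918587, plus strand): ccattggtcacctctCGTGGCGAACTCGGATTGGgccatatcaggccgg
The first 5 of these genes fell with overexpression, HERPUD1 rose, and CANX and CRELD2 did not pass the test. HYOU1, with 2 ERSE-II matches, also fell, and ERO1B, with 1 ERSE match, did not pass. DNAJB11, MANF, PDIA4, PDIA6, PPIB and CREB3L2 fell with neither element. Of the 12 fallen genes with a promoter, 4 held ERSE and 2 ERSE-II, and of the 24 that did not pass 3 and 0. Over all tested genes 10.1% fell, and whether calls differ between genes with and without a match was not tested. A match is a run of letters and not a shown binding site, and a gene without one lacks only these letters in this window.

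Other motifs were rare in the 37 promoters. TGACGTGG, the core of the element bound by XBP1, was found in HYOU1 and SEC62, against 0.956% of the promoters of tested genes. The cyclic AMP element TGACGTCA was found in CREB3L2 (3.44% of all), and TGATGNAA, the core of the amino acid response element, in HERPUD1 (1.53%). The BCL6-type motif TTCCTNGAA was found in SEC61G, against 1.02%. The heat shock element GAANNTTCNNGAA had 0 matches, against 0.315%.

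Depth was even, at 16481014 to 18870186 reads in listed genes, and BCL6B itself had 0 reads in every control and 1215 to 1712 with overexpression. Its level was 14.8, 15.7 and 19.5 FPKM (fragments scaled to gene length and library size) in the overexpression libraries, at least 1311-fold above the 3 counts that 0 reads allow over the control group (exact permutation p = 0.1, the smallest that 3 libraries against 3 can give). Of 12 myeloid markers, 10 had a mean of at least 1 FPKM, while ELANE and CD68 lay below it. The summed level of the 12 was 2358 to 2545 FPKM in controls and 1908 to 2095 FPKM with overexpression. Most of it was MPO, at a mean of 2025 and 1668 FPKM. Of the 11 tested markers, 6 were called lower (54.55%, against 10.1% of all tested genes) and 1 higher (9.09%, against 8.18%). The other 4, SPI1, CSF3R, TYROBP and ELANE, stood at 1.13, 1.25, 1.28 and 1.13 of control and did not pass. Of plasma cell markers, which would mark a professional secretory cell, JCHAIN was at 0 and the 7 summed to 3.88 to 4.49 FPKM in controls and 3.14 to 3.89 FPKM with overexpression. The summed FPKM of controls and overexpression libraries was 6.82 to 7.74 and 7.02 to 7.90 for 5 B cell markers, with PAX5 at 0, and 3.46 to 4.64 and 5.12 to 6.71 for 5 of T or NK cells. It was 5.53 to 6.34 and 5.75 to 6.97 for 5 epithelial markers, with KRT19 and CDH1 at 0, and 2.57 to 2.91 and 3.20 to 3.45 for 6 of fibroblasts or endothelium, with COL1A2 and CDH5 at 0. Of 5 erythroid markers, 4 were at 0, and the sum reached at most 0.149 FPKM. The mitochondrial share of reads was 4.17% to 4.44% for the controls and, with overexpression, 4.49% to 4.97%. The part of the myeloid and mitochondrial differences in the results below was not tested.

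Expression with BCL6B overexpression was compared with control to ask which ER genes moved. The genes were called with limma on log2(FPKM + 1) at an adjusted p under 0.05 over all 14662 tested genes. Of the 39 that passed the filter on low values, 12 fell, 2 rose and 25 did not pass. Lower calls made up 30.8% of them, against 10.1% of all tested genes, and higher calls 5.13%, against 8.18%. Taking both directions together, 35.9% were called, against 18.3% of all. Genes with a mean of at least 10 FPKM were called lower more often, 766 of 4413 or 17.4%, and 11 of the 28 ER genes at that level were, or 39.3%. The median log2 change was -0.09 for the ER genes and -0.02 for all tested genes. In 14 of the 39 genes (35.9%) every overexpression library lay below every control, against 22.2% of all tested genes, and in 5 (12.8%) above, against 17.8%. Among genes with a mean of at least 10 FPKM the groups did not overlap, in either direction, in 14 of 28 ER genes and in 48.2% of all, and every overexpression library lay below in 42.9% and 30.1%. The count of falls was 9 to 13 when 1 library was left out, or 23.1% to 33.3%, and the share over all tested genes was then 4.21% to 8.58%. That share was lowest without control replicate 3, at 4.21%, and was 4.50% without control replicate 1, 4.75% without overexpression replicate 2 and 6.16% without control replicate 2. In the ER genes the count of rises was 0 without any 1 control or without overexpression replicate 2, and 1 without overexpression replicate 1.

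By role, all falls lay among the lumenal chaperones (6 of 9), the lectins and isomerases (4 of 9) and the transcription factors (2 of 5), both rises lay in ER-associated degradation (2 of 8 tested), and the 8 translocon genes gave no call. These are counts over small lists chosen with earlier results of these data known, and the differences between roles were not tested. In bulk RNA a lower value can mean fewer cells of a kind or less RNA per cell, and these cannot be told apart.

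**Figure D1:**
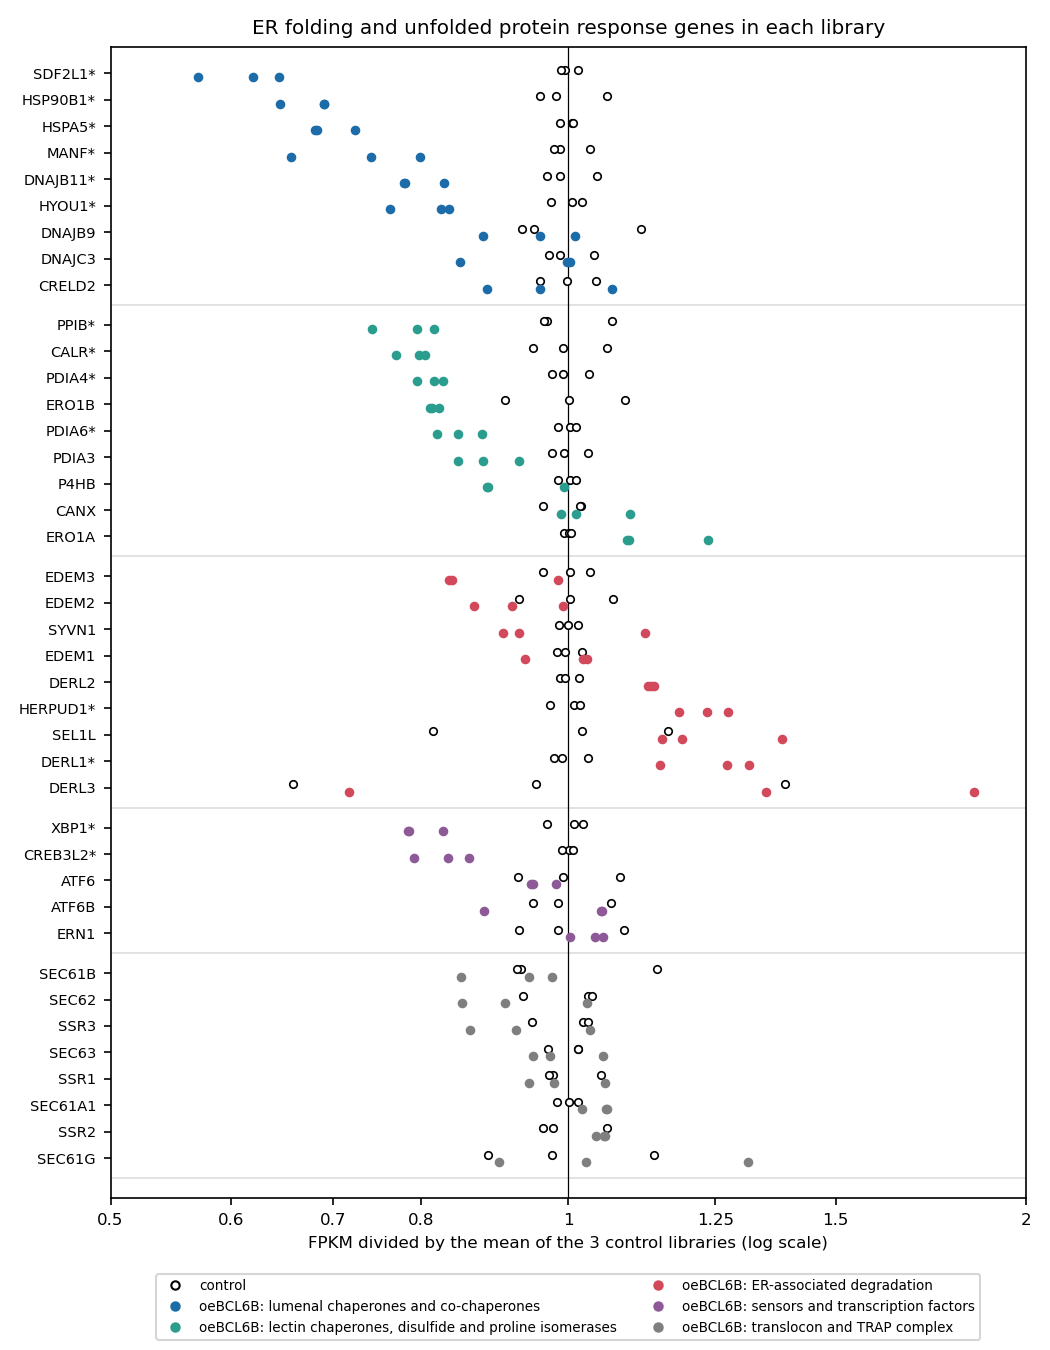
Each gene's FPKM in each library divided by the mean of its 3 control libraries, on a log axis, with open circles for control, filled circles for oeBCL6B, colours for the 5 roles and an asterisk for genes past the adjusted threshold of 0.05. The filled circles lie left of the open ones for SDF2L1, HSP90B1, HSPA5 and MANF, to the right for HERPUD1 and DERL1, and among them for 7 of the 8 translocon genes.

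Summed over genes and rescaled to TPM, a unit whose total is the same in every library, the 40 genes made up 11374 ± 154 TPM in controls and 9213 ± 208 TPM with overexpression (SD, n = 3). CALR alone held a large part of this, and without it the sum was 7026 ± 13.9 and 5848 ± 101 TPM. The 9 lumenal chaperones summed to 2038 ± 12.7 TPM in controls and 1395 ± 25.6 TPM with overexpression, and the 9 lectins and isomerases to 7930 ± 142 and 6481 ± 236 TPM. The 5 sensors and transcription factors summed to 305 ± 1.97 and 261 ± 8.07 TPM. The groups did not overlap in any of these 3 sums. The sums for ER-associated degradation, 266 ± 9.51 and 265 ± 7.37 TPM, and for the translocon, 835 ± 18.9 and 811 ± 31.8 TPM, did overlap between groups.

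**Figure D2:**
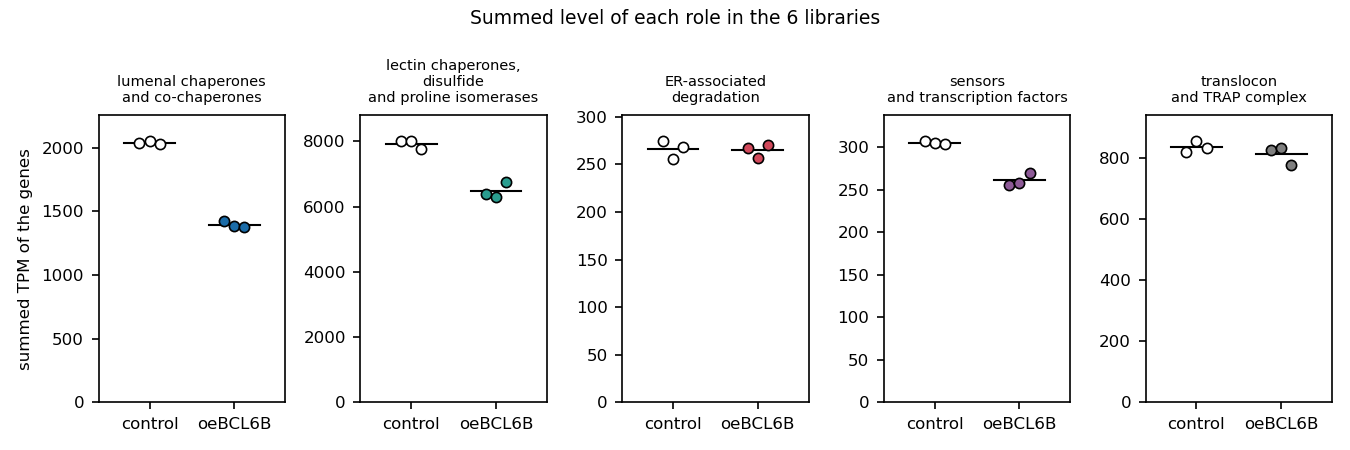
Summed TPM of the genes of each role in the 3 control (open) and 3 oeBCL6B (filled) libraries, with a bar at the group mean and each axis starting at 0. Chaperones stood at 2038 TPM in controls and 1395 TPM with overexpression, while ER-associated degradation stood at 266 and 265 TPM.

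The lumenal chaperones held the largest falls. SDF2L1, a small protein that binds J-domain partners in the ER lumen, had 12.8, 12.7 and 13.1 FPKM in controls and 7.35, 8.30 and 7.99 FPKM with overexpression. It fell to 0.612 of control (log2 change -0.64, SE 0.0556, limma adjusted p = 0.00129), on 249 to 259 reads in controls and 152 to 176 with overexpression. HSP90B1, which encodes the ER form of HSP90, had 332.6, 367.6 and 340.3 FPKM in controls and 239.5, 239.7 and 224.1 FPKM with overexpression. That was 0.676 of control (log2 change -0.56, SE 0.0576, limma adjusted p = 0.00244). HSPA5, or BiP, the main lumenal chaperone and the brake on all 3 stress sensors, had 119.8, 120.0 and 117.6 FPKM in controls and 86.3, 81.5 and 81.2 FPKM with overexpression. It fell to 0.697 of control (log2 change -0.52, SE 0.0431, limma adjusted p = 0.00109). In each of these 3 genes every overexpression library lay below every control.

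MANF, a secreted protein of the stressed ER that binds BiP, fell to 0.733 of control, from 36.3 ± 1.07 to 26.6 ± 2.61 FPKM (SD, n = 3). Among the partners of BiP, the J protein gene DNAJB11 fell to 0.797 of control, from 12.9 ± 0.510 to 10.3 ± 0.358 FPKM, and HYOU1, which encodes its nucleotide exchange factor, to 0.808, from 17.1 ± 0.405 to 13.8 ± 0.659 FPKM. The limma adjusted p was 0.0102, 0.0109 and 0.0119, and HYOU1 lost its call without control replicate 3, at 0.0542. The other J protein genes, DNAJB9 and DNAJC3, encode brakes on IRE1 and on PERK. They stood at 0.949 and 0.950 of control, and CRELD2, a gene of an ER protein induced by stress, at 0.970. Their 95% intervals of the log2 change were -0.25 to 0.14, -0.24 to 0.10 and -0.21 to 0.14, and in all 3 the groups overlapped.

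Of the lectin chaperones, which hold glycoproteins through their sugar, the soluble member fell and the membrane-bound one did not pass the test. CALR, encoding the soluble calreticulin, was the most abundant of the 40 per length, with 1201, 1284 and 1147 FPKM in controls and 932.6, 965.6 and 974.2 FPKM with overexpression. It fell to 0.791 of control (log2 change -0.34, SE 0.0636, limma adjusted p = 0.0151), and lost its call without control replicate 1 or overexpression replicate 1, at an adjusted p of up to 0.0540, and at 0.160 when no filter was set. CANX, encoding the membrane-bound calnexin, had 119.6, 113.0 and 119.3 FPKM in controls and 128.8, 118.7 and 116.1 FPKM with overexpression. It stood at 1.03 of control, with a 95% interval of the log2 change of -0.08 to 0.17, and the groups overlapped. The interval of CALR was -0.49 to -0.19, and the difference between the genes was not tested.

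Of the isomerases, PPIB, the prolyl isomerase cyclophilin B, had 186.7, 206.0 and 185.8 FPKM in controls and 143.2, 157.4 and 153.3 FPKM with overexpression. PPIB fell to 0.785 of control (log2 change -0.35, SE 0.0613, limma adjusted p = 0.0121). The disulfide isomerase gene PDIA4 had 89.6, 94.8 and 91.2 FPKM in controls and 73.1, 74.9 and 75.9 FPKM with overexpression, or 0.813 of control (limma adjusted p = 0.00644). PPIB and PDIA4 passed in all 17 alternatives, and in both genes the groups did not overlap. PDIA6 fell to 0.848 of control, from 41.3 ± 0.566 to 35.0 ± 1.20 FPKM (SD, n = 3, limma adjusted p = 0.0140), and lost its call without control replicate 1 or 3 or overexpression replicate 2 (up to 0.0633).

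PDIA3, the isomerase that works with calreticulin and calnexin, had 260.0, 274.6 and 265.0 FPKM in controls and 247.3, 234.2 and 225.6 FPKM with overexpression. Its groups did not overlap, yet at 0.884 of control it did not pass (limma adjusted p = 0.0595, 0.0154 to 0.157 across alternatives). P4HB, the archetypal disulfide isomerase, stood at 0.921, with an interval of the log2 change of -0.26 to 0.02. The oxidases that recharge these isomerases lay on opposite sides of control. ERO1A, the widely expressed and hypoxia-induced oxidase, had 20.7, 20.9 and 21.0 FPKM in controls and 25.8, 22.9 and 22.8 FPKM with overexpression (1.14 of control, limma adjusted p = 0.0712). ERO1B, its paralogue, had 3.23, 2.69 and 2.97 FPKM in controls and 2.44, 2.41 and 2.40 FPKM with overexpression (0.816 of control, limma adjusted p = 0.0899). Neither passed, although the groups did not overlap in either gene, and passing alternatives put ERO1A at 0.0291 and ERO1B at 0.0460 at the lowest.

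**Figure D3:**
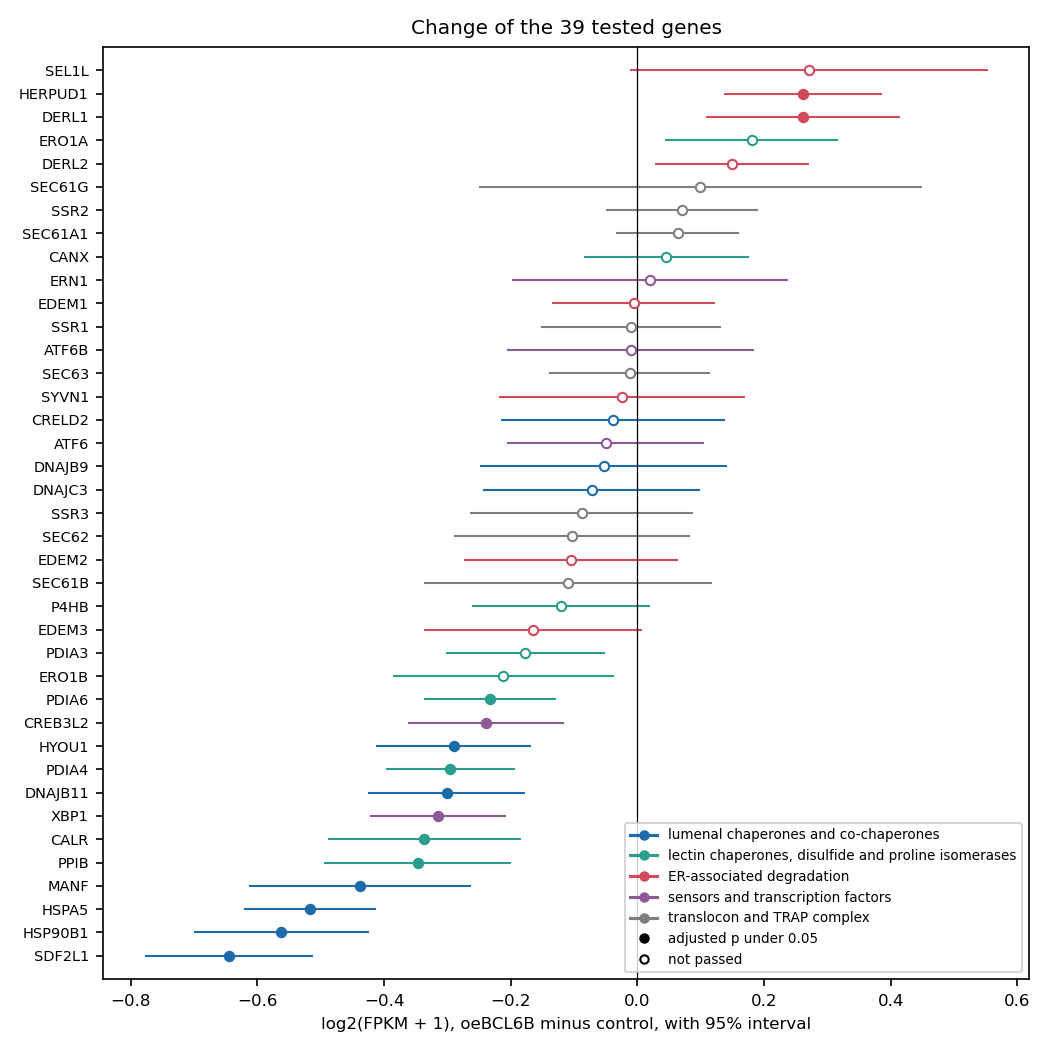
Change in log2(FPKM + 1), oeBCL6B minus control, of the 39 tested genes with the 95% interval from the limma fit, coloured by role and filled where the adjusted p is under 0.05. The 12 filled points left of 0 reach from -0.23 for PDIA6 to -0.64 for SDF2L1, and the 2 to the right, HERPUD1 and DERL1, lie at 0.26.

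In ER-associated degradation, where misfolded proteins are drawn out of the ER and tagged with ubiquitin, the called genes were higher. HERPUD1, a stress-induced membrane protein that helps assemble the ubiquitin ligase complex, had 6.52, 6.28 and 6.58 FPKM in controls and 8.23, 7.97 and 7.65 FPKM with overexpression. It rose 1.23-fold (log2 change 0.26, SE 0.0517, limma adjusted p = 0.0172). DERL1, a derlin of the channel through which proteins leave the ER, had 4.31, 4.26 and 4.48 FPKM in controls and 5.54, 5.72 and 5.00 FPKM with overexpression. It rose 1.25-fold (log2 change 0.26, SE 0.0640, limma adjusted p = 0.0343). Every overexpression library lay above every control in both genes. Both calls were lost when any of several single libraries was left out. Across the 17 alternatives the log2 change stayed at 0.24 to 0.30 for HERPUD1 and 0.23 to 0.32 for DERL1. HERPUD1 lost its call without any 1 control or without overexpression replicate 2 (adjusted p up to 0.0625), and DERL1 without any 1 library other than overexpression replicate 3 (up to 0.111), without the filter, after TPM rescaling and with the replicate number as a block.

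The rest of the degradation machinery did not pass. DERL2, a second derlin, had 4.38, 4.50 and 4.41 FPKM in controls and 5.00, 5.02 and 5.05 FPKM with overexpression, 1.13 of control with groups that did not overlap (limma adjusted p = 0.0865). SEL1L, the adaptor of the ligase SYVN1, stood at 1.24 of control with overlapping groups, since the controls ranged from 3.99 to 5.70 FPKM. With voom SEL1L passed as higher (adjusted p = 0.033). SYVN1 itself stood at 0.986 of control. The mannosidases EDEM1, EDEM2 and EDEM3, which trim the sugars of proteins bound for degradation, stood at 0.996, 0.926 and 0.886 of control, each with overlapping groups. EDEM3 passed as lower with library weights and without overexpression replicate 1 (limma adjusted p = 0.0334 at the lowest). DERL3, a derlin of secretory tissues, lay between 0.116 and 0.324 FPKM in the 6 libraries, under the filter, and shares 77% of its exon bases with SMARCB1 on the other strand.

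Of the sensors and transcription factors, XBP1 had 43.6, 46.0 and 45.4 FPKM in controls and 37.2, 35.3 and 35.3 FPKM with overexpression. It fell to 0.799 of control (log2 change -0.32, SE 0.0445, limma adjusted p = 0.00618), with no overlap, and passed in all 17 alternatives. CREB3L2, a membrane-bound factor of the same bZIP class that promotes secretory capacity, had 7.96, 8.02 and 7.88 FPKM in controls and 6.63, 6.84 and 6.30 FPKM with overexpression. It fell to 0.829 of control (log2 change -0.24, SE 0.0510, limma adjusted p = 0.0220), and the call was lost without any 1 control or without overexpression replicate 2 (up to 0.0784). The sensor genes gave no call. ERN1, which encodes IRE1, was low, at 0.686, 0.647 and 0.759 FPKM in controls and 0.699, 0.727 and 0.735 FPKM with overexpression, with an interval of the log2 change of -0.20 to 0.24. ATF6 had 5.84, 5.36 and 5.00 FPKM in controls and 5.30, 5.10 and 5.12 FPKM with overexpression, with an interval of -0.20 to 0.10, and ATF6B stood at 0.994 of control. FPKM per gene shows neither XBP1 splicing nor ATF6 cleavage, so that sensor activity was not measured.

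The translocon and its partners showed no call in limma, with 0 of 8 also at an unadjusted p under 0.05 and 0 of 8 with voom. SEC61A1, the channel itself, had 34.5, 33.9 and 35.0 FPKM in controls and 35.2, 36.5 and 36.5 FPKM with overexpression. That was 1.05 of control with an interval of the log2 change of -0.03 to 0.16, though the groups did not overlap. Its small partners SEC61B and SEC61G stood at 0.923 and 1.08 of control and varied more between libraries, with intervals of -0.33 to 0.12 and -0.25 to 0.45. SEC62 and SEC63, which serve import after translation and recruit BiP, stood at 0.929 and 0.992. The subunits of the TRAP complex, which helps signal sequences open the channel, stood at 0.993 for SSR1, 1.05 for SSR2 and 0.940 for SSR3. Except for SEC61G, whose interval reaches further up, the intervals of these genes stay within -0.33 and 0.19.

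**Figure D4:**
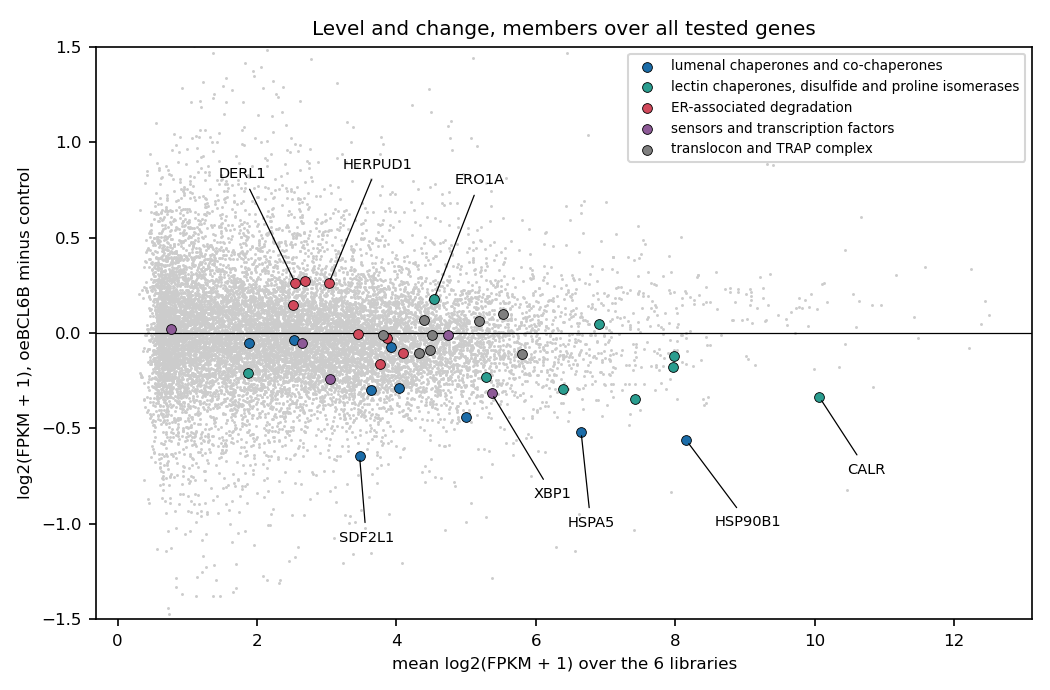
Mean level over the 6 libraries, as log2(FPKM + 1), against the change from control to oeBCL6B for all 14662 tested genes (grey) and the 39 tested ER genes (coloured by role), with 23 grey genes beyond the axis limits of -1.5 and 1.5. HSP90B1 at -0.56 and HSPA5 at -0.52 lie among the lower points of the abundant genes, while the translocon genes lie between -0.11 and 0.10.

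Other ER lists held calls at shares of 0% to 11.1% lower and 0% to 9.52% higher, near or under the 10.1% and 8.18% of all tested genes, so that the genes named here say nothing of their lists. Of 17 tested genes of other disulfide isomerases and oxidative folding, 1 rose and 0 fell, also 0 at an unadjusted p under 0.05 and with voom. The riser was TMX4, a membrane-bound thioredoxin-like protein, at 1.30 of control. In N-glycosylation and the calnexin cycle 2 of 21 rose (9.52%) and 1 fell (4.76%). RPN2, a subunit of the oligosaccharyltransferase, rose to 1.14 and the mannosidase gene MAN1A2 to 1.35 of control, while STT3B, the catalytic subunit that acts after translation, fell to 0.793. Of 29 other genes of ER-associated degradation 3 fell and 0 rose, with 1 rising at an unadjusted p under 0.05 and 1 with voom. ERLIN1, whose product helps degrade IP3 receptors, fell from 26.0 ± 0.621 to 15.6 ± 0.212 FPKM (SD, n = 3), or 0.602 of control (limma adjusted p = 0.00035). HERPUD2 fell to 0.801 and VCP, the ATPase that pulls proteins out of the membrane, to 0.836. Of 23 genes of signal recognition, membrane insertion and signal peptidase 2 rose and 2 fell, CAMLG among the former at 1.15, GET3 and SRP68 among the latter at 0.860 and 0.868. Of 18 genes of COPII export 1 rose and 2 fell, KDELR2, a receptor that retrieves lumenal chaperones, at 1.18, and SEC24C and SEC24D at 0.763 and 0.796. Apart from ERLIN1, each gene named in these lists lost its call without 1 or more of the libraries, with adjusted p up to 0.142, and SEC24D, MAN1A2, CAMLG and SRP68 lost it without any 1 of the 6. With all libraries kept, these 4 also lost it with the replicate number as a block, and they and STT3B, RPN2, HERPUD2, VCP and TMX4 lost it without the filter on low values. Calls were lost after TPM rescaling for MAN1A2 and CAMLG, after median-ratio scaling for SRP68, after quantile normalization for STT3B and SRP68, and with voom for GET3. Without the mean-variance trend, STT3B, RPN2, GET3, CAMLG and SRP68 lost theirs.

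The PERK arm is the branch of the response that acts through translation and ATF4. It had 2 rises (18.2%) and 1 fall (9.09%) among 11 tested genes, against 8.18% and 10.1% of all tested genes. Neither PERK activity nor translation was measured, so that these calls cannot be assigned to PERK. ATF4 had 215.6, 224.9 and 216.1 FPKM in controls and 269.2, 279.1 and 272.5 FPKM with overexpression (1.25 of control, limma adjusted p = 0.00552). TRIB3, its target and inhibitor, rose to 2.07 of control, from 74.0 ± 2.72 to 153 ± 4.65 FPKM (SD, n = 3). ASNS, another ATF4 target, fell to 0.709, a call lost without control replicate 1 or 3 or overexpression replicate 2 or 3 (up to 0.0736), and without the filter. The PERK gene EIF2AK3 stood at 1.36 and DDIT3, which encodes CHOP, at 1.14 of control, and neither passed (limma adjusted p = 0.0611 and 0.164). The remaining tested genes of this list did not pass either. PPP1R15A, PPP1R15B, SESN2 and EIF2S1 stood at 0.941, 0.934, 0.968 and 0.962 of control, and ATF3 and CEBPB at 1.03 and 1.04. The median log2 change of the list was 0.03. The other regulators were called at 9.09% in each direction, near the shares of all tested genes. Of these 1 of 11 rose, TMBIM6, a brake on IRE1, at 1.16, and 1 fell, RTCB, the ligase that joins spliced XBP1, at 0.866. RTCB lost its call in 12 of 17 alternatives (adjusted p up to 0.142), namely without any 1 library other than overexpression replicate 1 and, with all libraries, without the filter or the trend, after median-ratio, quantile or TPM scaling, with the block and with voom. TMBIM6 lost its call without control replicate 1 or 3 or overexpression replicate 2 (up to 0.0642).

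The list nearest to the lumenal chaperones in its share of falls was that of the cytosolic and mitochondrial chaperones, of which 18 of 30 tested genes fell (60.0%, against 10.1% of all) and 0 rose, with 1 rising at an unadjusted p under 0.05 and 0 with voom. Its median log2 change was -0.28, against -0.30 for the 9 lumenal chaperones. Of all 14662 tested genes, 2194 rose at that unadjusted threshold, and 11.4% rose with voom. The cytosolic counterparts of HSP90B1 and HSPA5 were not all called. HSP90AB1, at 0.891 of control with groups that did not overlap, and HSPA1B, at 0.981, did not pass (limma adjusted p = 0.0588 and 0.889). HSPA1A lay under the filter, while HSP90AA1 and HSPA8 fell. HSP90AA1 stood at 0.487 of control beside 0.676 for HSP90B1, and HSPA8 at 0.514 beside 0.697 for HSPA5, while HSPH1, an exchange factor of the cytosol as HYOU1 is of the ER, stood at 0.580 beside 0.808. HSPA4, a relative of HSPH1 in the same list, fell to 0.806 (limma adjusted p = 0.00787), near HYOU1. The differences within these pairs were not tested.

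**Figure D5:**
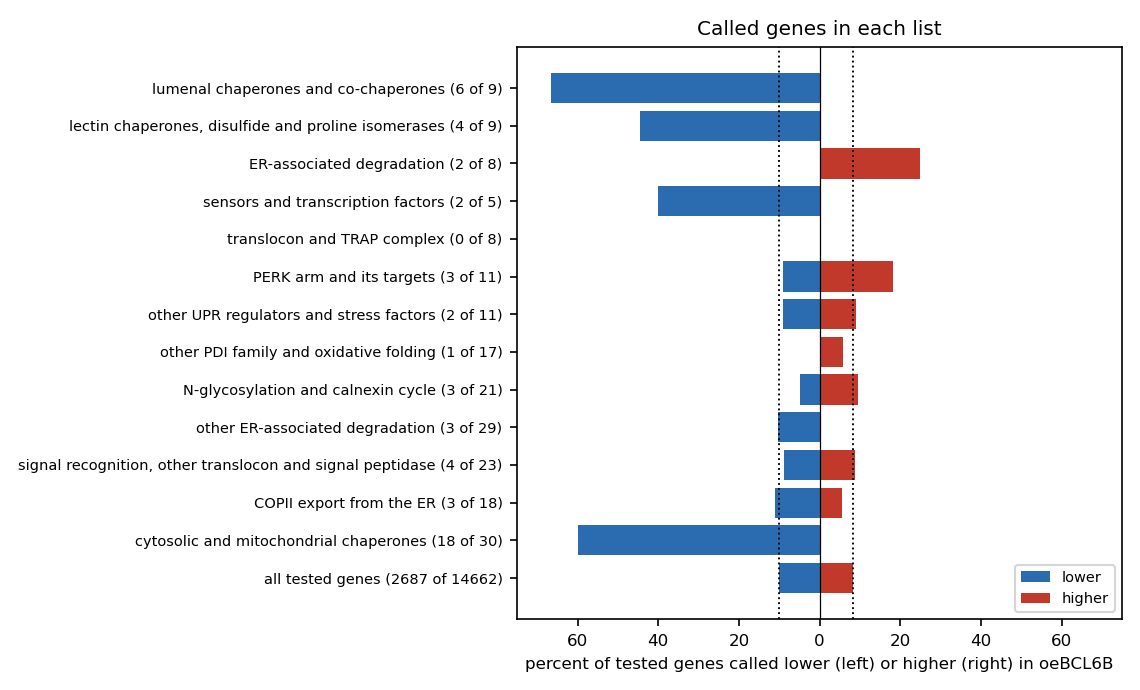
Percent of tested genes called lower (left) or higher (right) by limma at an adjusted p under 0.05 in each list, with the number called and tested in brackets and dotted lines at the shares over all 14662 tested genes, 10.1% lower and 8.18% higher. Lumenal chaperones (6 of 9) and cytosolic and mitochondrial chaperones (18 of 30) reach furthest to the left, and the translocon has no bar.

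Some genes share sequence or position with others, which could shift their reads in a way the table does not show. PDIA3 has 3 near-identical copies or overlapping transcripts, among them PDIA3P1, that held 764 reads per library in all against 19600 for PDIA3. PPIB and PDIA6 share 27.2% and 25.2% of their exon bases with SNX22 and ATP6V1C2 on the other strand, and the use of strand in counting is not given in the sources used here. On the same strand, ATF6B shares 9.92% of its exon bases with other genes, SYVN1 8.39%, DNAJB11 7.87%, HSP90B1 2.79% and SSR1 0.608%. The longest ATF6 transcript has a stretch of near-identity to transcripts of 18 other genes, so that its value is uncertain. HSPA5, XBP1, MANF, SDF2L1, HERPUD1 and PDIA4 had no copy and no shared exon base by these criteria.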

How the data were processed

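The authors deposited 1 table of FPKM for 58735 genes with gene lengths, per the file headers. Trimming with cutadapt 1.9 and build GRCh38 come from the submitters' processing notes, and no aligner or counter is named (not given in the sources used here). FPKM times gene length gave whole reads for 100% of 139702 values above 0 (tolerance 0.01), so that depth is known. The floor for 0 reads covers counting error only, and the 95% intervals of log2 changes come from the fit below.

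The 14662 genes that reached 0.5 FPKM in 3 or more libraries were fitted as log2(FPKM + 1) by limma (3.58.1, R 4.3.3), using its trend of variance on level. Tests were 2-sided, adjusted by Benjamini-Hochberg across these genes and called at 0.05. This scale understates the change of low genes. The procedure was tested on simulated reads, where it missed many small changes and made its false calls among genes with few reads. The 40 genes and all lists were chosen with earlier results of these data known. By rule, per-library values are given for the 3 largest called rises and falls of each role, HSPA5, XBP1, ERN1, ATF6 and HERPUD1, and each list names up to 3 called genes with the smallest adjusted p. Per-library values of CANX, PDIA3, ERO1A, ERO1B, DERL2, SEC61A1 and ATF4 were added outside it. So were all values of EIF2AK3, DDIT3, PPP1R15A, PPP1R15B, SESN2, EIF2S1, ATF3, CEBPB, HSP90AB1, HSPA1B and HSPA4, and of the markers MPO, SPI1, CSF3R, TYROBP and ELANE. Alternatives were pseudocounts of 0.1 and 0.5, other filters, median-ratio, quantile and TPM scaling, no trend, library weights, a replicate block, voom on the recovered reads and leaving out each library. Copies of at least 98% identity over 200 bases came from BLAST+ 2.17.0 against GENCODE 29 transcripts.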

Additional observations from a re-analysis of the deposited data

How the results depend on the processing

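Of the 14 called ER genes 8 kept their call and all 14 kept their direction in all 17 alternatives, and of the 25 that did not pass 5 passed in at least 1. The number called lower was 11 to 15 under the settings that keep all libraries and 9 to 13 with 1 library left out, against 12. The number called higher, 2, became 1 without the filter on low values, 1 after TPM rescaling, 1 with the replicate block, 3 with quantile normalization and 4 with voom, and 0 to 2 with 1 library left out. Over all genes 1199 higher and 1488 lower calls became 716 and 872 without the filter, where 30382 genes were tested, and 604 to 1014 higher and 618 to 1258 lower with 1 library left out. The causes were not tested. With the replicate block 12 ER genes were lower, 1 was higher, and DERL1 lost its call. Deviations of same-numbered libraries from their group means correlated at 0.0511, 0.110 and -0.00189 across genes. Those of differently numbered libraries correlated at -0.0909 to 0.0386, below the pairs numbered 1 and 2. All these values are small, and whether the numbers pair the libraries was not tested. No scaling moved the median of all genes by more than 0.0339 on the log2 scale. DERL3, with 14.2 reads per library on average, is limited by depth.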
